A study of Mus musculus with 6 samples.

Results

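The interferon-stimulated genes described here are 43 mouse genes, found by symbol among the 49315 rows of the count table, and all 43 had a row. They comprise 37 genes classed as type I members and 6 classed as interferon gamma members (Gbp2, Gbp3, Gbp7, Igtp, Irgm1 and Iigp1). The list was fixed by gene name and not by values measured in these hearts, although results of the same hearts were known when it was drawn up. RNA sequencing was done on total RNA of 6 hearts of C57BL/6 mice, 3 wild-type and 3 from mice in which Arrdc4, an alpha-arrestin adaptor of ubiquitin ligases, had been knocked out by CRISPR-Cas9. The knockout is labelled as the genotype of the animal, with no tissue-restricted Cre. No interferon, virus or other agent is named in the labels, and the sources used here do not give age, sex, litter or run of sequencing. Each heart gave 1 library, numbered 1 to 3 within its genotype. The labels say no more of where the hearts came from, so p-values measure only the spread between these samples.

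Type I interferons bind the IFNAR receptor and act through JAK1 and TYK2 on a complex that includes STAT2 and IRF9 and binds the interferon-stimulated response element (ISRE) of target genes. Interferon gamma binds the IFNGR receptor and acts on gamma-activated sites (GAS), and it induces the GBP and IRG families of GTPases strongly. The targets encode sensors of viral nucleic acid, enzymes that degrade or block viral RNA, ISG15 and its conjugation machinery, and GTPases that attack the vacuoles of intracellular microbes. Many of them also respond to both interferons, so the 2 classes are a matter of emphasis.

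Promoters of 6 members are shown because they span both classes and both elements. Each run is the 200 bases just upstream of the RefSeq start on build GRCm38.p6, read 5′ to 3′ on the strand of the gene. Capitals mark matches, on either strand, to the ISRE core GAAANNGAA or the GAS letters TTCNNNGAA. Isg15 (chr4:156200819-156201018, minus strand) encodes a ubiquitin-like modifier. Ifit3 (chr19:34583329-34583528, plus strand) and Ifit3b (chr19:34607757-34607956, plus strand) are neighbouring copies of an antiviral gene. Irf1 (chr11:53769814-53770013, plus strand) encodes a transcription factor. Gbp7 (chr3:142530136-142530335, plus strand) and Igtp (chr11:58199356-58199555, plus strand) are interferon gamma members.
Isg15: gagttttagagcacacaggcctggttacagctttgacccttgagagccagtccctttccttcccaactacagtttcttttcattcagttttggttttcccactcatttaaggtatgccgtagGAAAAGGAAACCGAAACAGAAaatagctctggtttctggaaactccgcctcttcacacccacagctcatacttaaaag
Ifit3: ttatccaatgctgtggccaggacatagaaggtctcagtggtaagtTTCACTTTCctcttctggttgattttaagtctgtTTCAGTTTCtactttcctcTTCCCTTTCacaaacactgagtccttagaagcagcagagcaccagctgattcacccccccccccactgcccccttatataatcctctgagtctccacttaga
Ifit3b: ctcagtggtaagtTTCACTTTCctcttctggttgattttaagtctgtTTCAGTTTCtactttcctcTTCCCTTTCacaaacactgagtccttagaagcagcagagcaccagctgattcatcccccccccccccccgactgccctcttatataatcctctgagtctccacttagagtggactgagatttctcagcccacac
Irf1: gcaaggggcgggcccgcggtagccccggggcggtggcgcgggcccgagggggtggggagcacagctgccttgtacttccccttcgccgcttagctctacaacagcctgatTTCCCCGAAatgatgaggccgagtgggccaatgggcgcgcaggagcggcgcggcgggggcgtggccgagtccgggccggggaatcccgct
Gbp7: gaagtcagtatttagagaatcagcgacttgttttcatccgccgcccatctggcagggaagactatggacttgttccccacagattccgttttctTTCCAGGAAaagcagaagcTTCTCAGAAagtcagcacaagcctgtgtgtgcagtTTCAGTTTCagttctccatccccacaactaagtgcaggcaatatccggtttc
Igtp: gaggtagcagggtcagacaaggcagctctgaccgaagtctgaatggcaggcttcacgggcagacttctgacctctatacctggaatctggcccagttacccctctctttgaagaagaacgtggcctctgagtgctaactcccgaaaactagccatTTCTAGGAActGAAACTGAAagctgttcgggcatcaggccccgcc

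With the start base counted as 0, the 3 ISRE matches of Isg15 began at -78, -72 and -66 and overlapped one another. Ifit3 had 3 ISRE matches, at -155, -121 and -102, and each of these lay in 25 bases that recur letter for letter upstream of Ifit3b. Irf1 had no ISRE match in the run shown but a GAS match at -90. Igtp held a GAS match at -45 and an ISRE match at -34, and Gbp7 held GAS matches at -106 and -87 and an ISRE match at -52. Over the whole window of 300 bases (250 before and 50 after the start), 32 of the 43 members had an entry in the RefSeq table. The ISRE core was present for 20 of these 32 (62.5%), against 9.76% of the 27025 genes of the table. It was present for 15 of 27 type I members (55.6%) and for 5 of 5 interferon gamma members. GAS letters were present for 9 of 32 members (28.1%), 7 of 27 type I and 2 of 5 interferon gamma, against 9.55% of all genes. Both motifs were present for 5 members, and they overlapped each other in 1, Bst2. These matches describe the letters in the window and do not show binding.

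Libraries held 29974501 to 41036626 counts. Levels are given as CPM, a count scaled to library size (TMM), and differences as log2 fold changes, knockout over wild type, with the standard error (SE) of edgeR's quasi-likelihood test. Arrdc4 itself fell from 9.20 ± 1.60 CPM (SD, n = 3) in wild-type hearts to 0.0678 ± 0.0432 (SD, n = 3) in knockout hearts, a log2 fold change of -6.93 (adjusted p = 0.00226). It was called alone among the 14508 genes tested, and without knockout heart 3 no gene was called. Markers of cardiomyocytes summed to between 54444 and 66881 CPM in every heart. On the first principal component, with 58.9% of the variance, wild-type heart 3 and knockout heart 2 stood together at 42.4 and 43.8, and the other 4 hearts lay between -38.3 and 1.88.

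No interferon-stimulated gene was called changed by loss of Arrdc4. Of the 42 members tested, 37 had a higher value in knockout and 5 a lower one (Rsad2, Oas3, Irf7, Ifi27 and Ifi35), but the differences were small, and both class medians lay near 0 without knockout heart 1 (0.02 and 0.07). The median log2 fold change was 0.21, against 0.01 over all genes tested, of which 52.3% had a higher value in knockout. Knockout heart 1 held the highest level of 36 of the 42 members, and the median member lay within the wild-type range in the other 2 knockout hearts. Mx1 was not tested, with 4 to 15 reads per heart.

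By edgeR's quasi-likelihood test with Benjamini-Hochberg adjustment, 0 of 42 members passed an adjusted p of 0.05, where 0.00689% of all genes did, and every member's adjusted p was 0.99995. DESeq2 and limma-voom also called 0 members. At an unadjusted p under 0.05, edgeR held 1 member with a higher value in knockout, Ifit3b, where 0.751% of all genes were so placed, and 0 with a lower value, where the share of all genes was 0.482%. DESeq2 held 2 at that level, Ifit3 and Ifit3b, and limma-voom 0. All 3 knockout hearts lay above all 3 wild-type hearts for 2 members, Ifit3b and Usp18, against 2.18% of all genes. The reverse held for 0 members, against 1.9% of all genes. For 28 of the 42 members, 26 of 36 type I and 2 of 6 interferon gamma, the 95% interval of the fold change lay within 2-fold in either direction; this held for 76.5% of all genes.

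**Figure D1:**
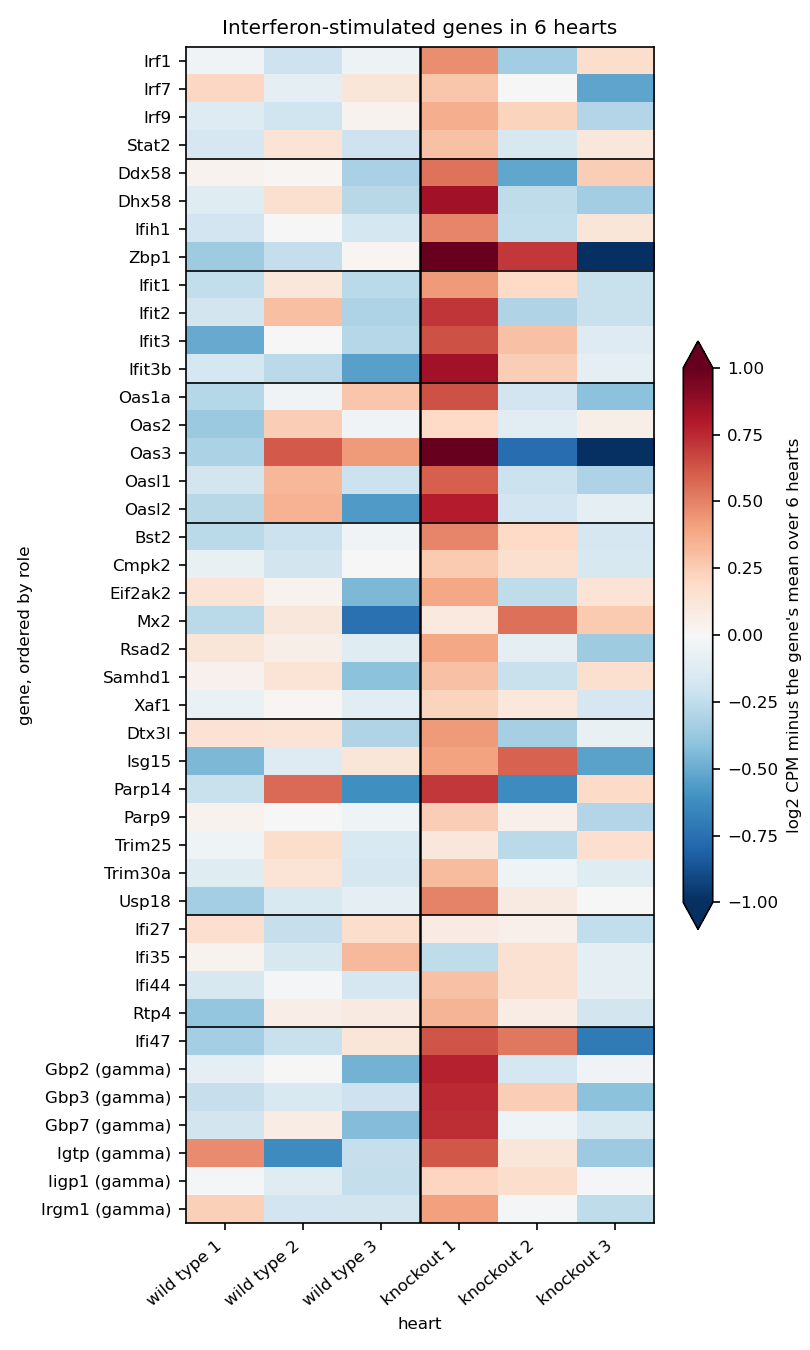
Heat map of the 42 tested members (rows, ordered by role) in the 6 hearts (columns), coloured by log2 CPM minus the gene's mean over the 6 hearts. The column of knockout heart 1 is red for most genes and holds the highest value of 36 of them, while knockout hearts 2 and 3 show no such block of red.

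The transcription factors that carry the interferon signal were present at middling levels and overlapped between genotypes. Irf1, which activates both type I and interferon gamma targets, stood at 15.3, 13.6 and 15.1 CPM in wild-type hearts 1 to 3 and at 21.6, 12.3 and 17.6 in knockout hearts 1 to 3. Its highest and its lowest value were both in knockout hearts (log2 fold change 0.23, SE 0.21). Irf9, the DNA-binding part of the type I complex, stood at 13.4, 12.7 and 14.95 CPM in wild type and at 18.8, 16.99 and 11.9 in knockout. Knockout hearts 1 and 2 were above all wild-type hearts and knockout heart 3 below them (log2 fold change 0.22, SE 0.20). Stat2, a further part of that complex, had a log2 fold change of 0.17 (SE 0.18). Irf7, which amplifies type I interferon production, had a slightly lower mean in knockout, 9.65 ± 2.61 CPM against 10.5 ± 1.08 (SD, n = 3 for both groups), and a log2 fold change of -0.13 (SE 0.22).

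The sensors of viral nucleic acid had higher means in knockout for 4 of 4 genes, with log2 fold changes of 0.24 to 0.68. Ifih1, which encodes the sensor MDA5 of long double-stranded RNA, stood at 6.61, 7.59 and 6.69 CPM in wild type and at 10.6, 6.37 and 8.25 in knockout. Knockout heart 2 was the lowest of all 6 hearts and knockout heart 1 the highest (log2 fold change 0.28, SE 0.21). Ddx58 encodes RIG-I, the sensor of RNA with a free triphosphate end, and showed the same order of knockout hearts, with 10.7, 5.10 and 8.69 CPM against 7.50, 7.40 and 5.82 in wild type. Dhx58, which encodes LGP2, a regulator of both, was found with 1.47 ± 0.752 CPM in knockout against 1.22 ± 0.201 (SD, n = 3 for both groups). Zbp1, a sensor of Z-form nucleic acid that triggers necroptosis, gave the largest log2 fold change of the sensors, 0.68, with the widest error (SE 0.55). Its levels were 0.633, 0.692 and 0.836 CPM in wild type and 1.75, 1.38 and 0.340 in knockout, so that knockout hearts again held both ends of the range.

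The IFIT genes, whose proteins bind foreign RNA and hold back its translation, had higher means in knockout for 4 of 4, and the 2 members with the smallest p of the 42 were among them. Ifit3b stood at 2.28, 2.13 and 1.76 CPM in wild type and at 4.66, 3.07 and 2.41 in knockout. All knockout hearts were above all wild-type hearts, and the log2 fold change was 0.72 (SE 0.28, 95% interval 0.05 to 1.39; unadjusted p = 0.0382 and adjusted p = 0.99995 in edgeR). Ifit3, its near copy, stood at 5.13, 7.27 and 5.97 CPM in wild type and at 11.4, 8.96 and 6.68 in knockout, with knockout heart 3 under wild-type heart 2 (log2 fold change 0.55, SE 0.24). The 2 genes are not independent measurements: 51.2% of the 50-base windows of Ifit3 transcripts also occur in Ifit3b, and 44.5% of those of Ifit3b in Ifit3. Reads from such windows can be shared or dropped, and the sources used here do not say how the authors counted them. Ifit2, with the most reads of the group, stood at 11.3, 15.8 and 10.3 CPM in wild type and at 21.1, 10.4 and 10.9 in knockout. Only knockout heart 1 lay above wild-type heart 2, and the log2 fold change was 0.18 (SE 0.31). Ifit1, which recognises RNA lacking a methylated cap, had a log2 fold change of 0.29 (SE 0.23).

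The genes of the oligoadenylate synthetase family, some of whose enzymes make the messenger that switches on RNase L, varied more between hearts than between genotypes. Oasl2, a family member that binds double-stranded RNA, stood at 4.97, 7.70 and 4.06 CPM in wild type and at 10.4, 5.27 and 5.63 in knockout. Knockout hearts 2 and 3 lay inside the wild-type range (log2 fold change 0.35, SE 0.34). Oas1a, Oas2 and Oasl1 had log2 fold changes of 0.09 each, and for Oas2 the highest heart was wild-type heart 2, at 3.86 CPM. Oas1a shares 57.6% of its 50-base windows with Oas1g. Oas3 had 5, 13 and 10 reads in wild type and 21, 3 and 3 in knockout, so its log2 fold change of -0.20 (SE 0.72) is hardly constrained.

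Among the other antiviral effectors, Bst2 and Mx2 had the highest log2 fold changes and Rsad2 the lowest. Bst2 encodes tetherin, which holds budding virions on the cell surface, and stood at 11.7, 12.2 and 13.8 CPM in wild type and at 19.8, 16.2 and 12.5 in knockout. Knockout heart 3 lay within the wild-type range (log2 fold change 0.37, SE 0.19, 95% interval -0.09 to 0.83). Samhd1, which depletes the nucleotides that reverse transcription needs, stood at 22.7, 24.3 and 16.6 CPM in wild type and at 27.1, 18.9 and 24.7 in knockout, with overlapping groups (log2 fold change 0.15, SE 0.20). That value was 0.0027 without wild-type heart 3, 0.04 without knockout heart 1 and 0.29 without knockout heart 2. Rsad2 (viperin, which makes a chain-terminating nucleotide) was level, with 13.9 ± 3.75 CPM in knockout against 14.0 ± 1.23 (SD, n = 3 for both groups) and a log2 fold change of -0.01 (SE 0.21). Its neighbour Cmpk2, a mitochondrial nucleotide kinase, gave 0.19 (SE 0.17) on the same scale. Eif2ak2, the RNA-dependent kinase PKR that halts translation, gave 0.18 (SE 0.23), and Xaf1, a proapoptotic interferon target, 0.11 (SE 0.17). Mx2 lay below 1 CPM in every heart but knockout heart 2 (log2 fold change 0.60, SE 0.33) and is annotated as a polymorphic pseudogene. Mx1 and Mx2 are known to be defective in most inbred laboratory mice.

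The ISG15, ubiquitin and ADP-ribosylation group had higher means in knockout for 7 of 7 genes, with log2 fold changes of 0.02 to 0.42. Usp18 removes ISG15 from its targets and dampens signalling at the type I receptor; it stood at 2.03, 2.32 and 2.42 CPM in wild type and at 3.66, 2.76 and 2.59 in knockout. The groups did not overlap, but knockout heart 3 exceeded wild-type heart 3 only slightly (log2 fold change 0.42, SE 0.22, 95% interval -0.09 to 0.92). Isg15 stood at 2.91, 3.65 and 4.36 CPM in wild type and at 5.29, 6.03 and 2.75 in knockout, where knockout heart 3 was the lowest of all (log2 fold change 0.36, SE 0.32). Trim25, the ubiquitin ligase that activates RIG-I, stood at 23.6, 27.5 and 21.9 CPM in wild type and at 26.3, 20.1 and 27.3 in knockout. Its mean was nearly the same in both genotypes (log2 fold change 0.02, SE 0.17). Trim30a, a negative regulator of innate signalling, gave 0.11 (SE 0.18). Parp9 and its partner ligase Dtx3l gave log2 fold changes of 0.02 and 0.03; their genes overlap on opposite strands, and without a stated strand setting reads in the overlap cannot be told apart. Parp14, a mono-ADP-ribosyltransferase, gave 0.19 (SE 0.40).

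The remaining type I members include 2 of the 5 members with a lower value in knockout, Ifi27 and Ifi35. Ifi27, which encodes a small mitochondrial membrane protein, stood at 18.7, 14.2 and 18.9 CPM in wild type and at 17.6, 17.3 and 14.1 in knockout. Its highest heart was wild-type heart 3 and its log2 fold change -0.08 (SE 0.17). Ifi35 had its highest level, 14.98 CPM, in wild-type heart 3 as well, and was the 1 member lowest in knockout heart 1, at 10.01 CPM (log2 fold change -0.14, SE 0.19). Ifi44 stood at 2.94, 3.25 and 2.92 CPM in wild type and at 4.03, 3.65 and 3.06 in knockout, with knockout heart 3 inside the wild-type range (log2 fold change 0.24, SE 0.19). Rtp4, a receptor transporter that is also an interferon target, gave 0.15 (SE 0.21).

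The 6 interferon gamma members all had a higher mean in knockout, with log2 fold changes of 0.11 to 0.47, and all 6 were highest in knockout heart 1. Guanylate-binding proteins coat pathogen vacuoles and bacteria. Gbp2 stood at 14.3, 15.4 and 11.1 CPM in wild type and at 26.2, 13.6 and 15.003 in knockout (log2 fold change 0.43, SE 0.28). Gbp3 stood at 9.84, 10.4 and 9.97 CPM in wild type and at 19.4, 13.7 and 8.67 in knockout (log2 fold change 0.47, SE 0.28). Gbp7 stood at 10.4, 12.4 and 8.71 CPM in wild type and at 19.7, 11.5 and 10.6 in knockout (log2 fold change 0.41, SE 0.27). In all 3 GBP genes knockout heart 1 was well above the rest, and at least 1 other knockout heart lay at or below a wild-type heart; the wild-type hearts were tightly grouped for Gbp3, at 10.1 ± 0.269 CPM (SD, n = 3).

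Immunity-related GTPases tear open the vacuoles of parasites and regulate one another, and Igtp and Irgm1 were high in a wild-type heart as well. Igtp stood at 22.4, 10.4 and 13.8 CPM in wild type and at 24.9, 17.6 and 12.5 in knockout (log2 fold change 0.24, SE 0.34). Irgm1, a regulatory member, stood at 20.03, 14.9 and 14.95 CPM in wild type and at 22.6, 16.9 and 14.2 in knockout (log2 fold change 0.11, SE 0.22). For both genes wild-type heart 1 came close to knockout heart 1. The same wild-type heart was the highest of its group for Irgm2, a further member of the family, at 33.2 CPM against 20.7 and 16.3, and for the class I genes H2-K1, at 172 CPM against 89.1 and 80.2, and B2m, at 204 CPM against 127 and 128; these 3 genes were picked after their values were seen. Iigp1, an effector GTPase with the most reads of all members, stood at 50.8, 47.1 and 43.4 CPM in wild type and at 59.5, 58.0 and 50.5 in knockout. Knockout heart 3 fell just short of wild-type heart 1, and the log2 fold change was 0.25 with the smallest error of the 42 members (SE 0.14, 95% interval -0.07 to 0.57). Ifi47, a GTPase of the same family that was classed with the type I members and responds to both interferons, stood at 2.72, 2.96 and 3.76 CPM in wild type and at 5.36, 4.996 and 2.09 in knockout (log2 fold change 0.40, SE 0.36). Its lowest heart was knockout heart 3. Igtp shares 11.8% of its 50-base windows with Irgm2, and 12.7% of those of Gbp7 occur in another gene.

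**Figure D2:**
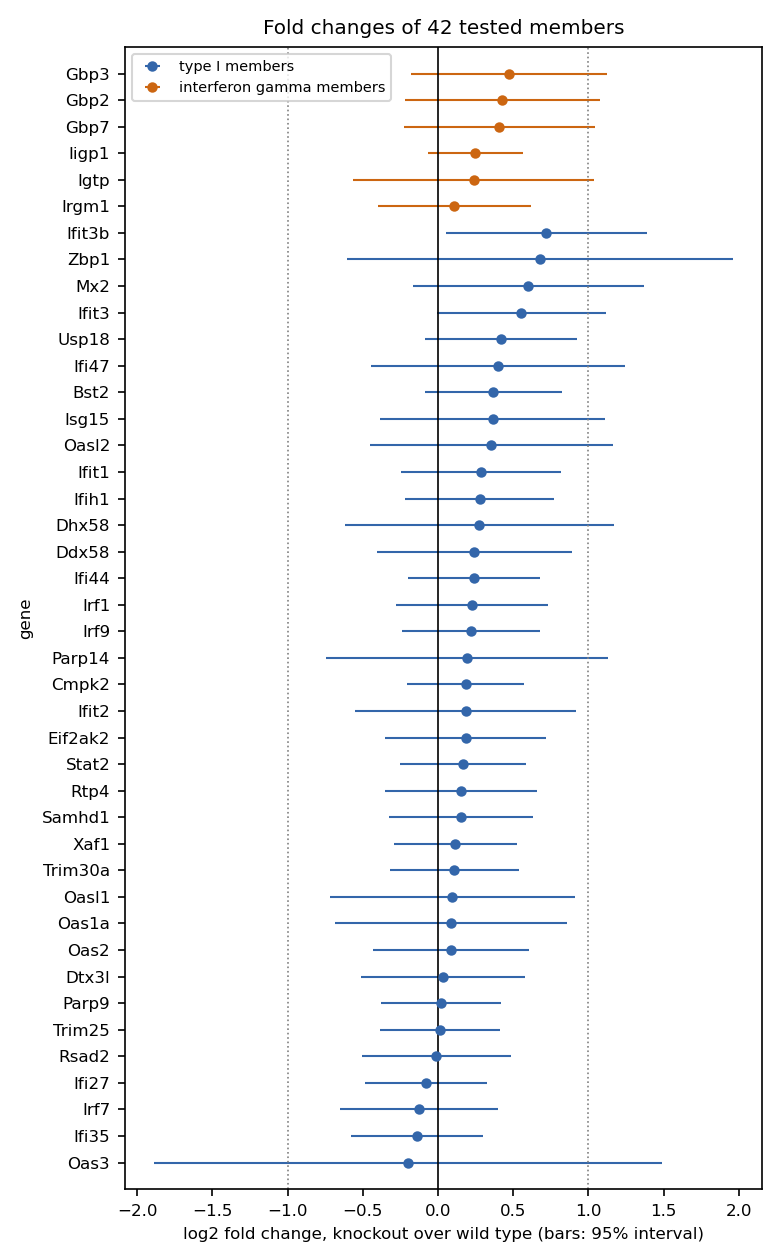
Log2 fold changes, knockout over wild type, of the 42 tested members (points) with 95% intervals (bars), interferon gamma members in orange and type I members in blue; dotted lines mark 2-fold. The points lie between -0.20 and 0.72, and the interval of 1 member, Ifit3b, leaves out 0.

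Per kilobase of exon, which allows levels of different genes to be compared, the wild-type hearts expressed Bst2 most, at 13.9 CPM per kilobase. Ifi27 followed at 11.8, Iigp1 at 8.09, Igtp at 7.69 and Ifi35 at 7.31 CPM per kilobase. Isg15 stood at 4.81 and Ifit3 at 3.51 CPM per kilobase. At the other end stood Oas3 at 0.0379, Mx1 at 0.0437, Mx2 at 0.168 and Zbp1 at 0.204 CPM per kilobase. Both classes were thus measurable in wild-type hearts, and 2 GTPases of the interferon gamma class were among the 5 highest.

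The comparison of the classes asks whether genes led by type I interferon and those led by interferon gamma differed between genotypes to a like degree. The median log2 fold change was 0.18 over 36 type I members, of which 31 had a higher value in knockout, and 0.33 over 6 interferon gamma members. With Ifi47 and Irf1 moved to the interferon gamma class the medians were 0.18 and 0.32. The difference between the classes was not tested, since the members share the same 6 hearts and several share reads. Relative to each gene's mean over the 6 hearts, the median type I member lay at -0.17, 0.02 and -0.14 (log2) in wild-type hearts 1 to 3 and at 0.41, -0.02 and -0.15 in knockout hearts 1 to 3. Interferon gamma members lay at -0.06, -0.14 and -0.23 in wild type and at 0.68, 0.06 and -0.21 in knockout. Knockout heart 1 therefore stood above the mean of the other 2 knockout hearts by a median of 0.46 (log2) for type I and 0.76 for interferon gamma members. It was the highest heart for 30 of 36 type I and 6 of 6 interferon gamma members, and for 21.6% of all genes tested. The exceptions were Isg15 and Mx2 in knockout heart 2, Oas2 and Trim25 in wild-type heart 2, and Ifi27 and Ifi35 in wild-type heart 3.

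Without knockout heart 1 the median log2 fold change was 0.02 for type I and 0.07 for interferon gamma members, and 25 of 42 members had a higher value in knockout, where 54.5% of all genes did. The 1 member at an unadjusted p under 0.05 in edgeR was then Oas3, with a log2 fold change of -1.55. With any other single heart left out the medians ran from 0.15 to 0.27 for type I and from 0.24 to 0.50 for interferon gamma members, and 33 to 40 members had a higher value. The count of members at an unadjusted p under 0.05 also turned on single hearts. It was 7 of 42 without knockout heart 3 (Bst2, Gbp3, Ifi47, Ifit3, Ifit3b, Isg15 and Zbp1), where 0.854% of all genes were at that level. It was 4 of 42 without knockout heart 2 (Ddx58, Ifih1, Ifit3b and Irf1), where 7.60% of all genes were, so that this count is near the background. It was 1 without wild-type heart 2 (Ifit3) and 0 without wild-type heart 1 or 3, and in the fits without 1 of the other 4 hearts the share of all genes ran from 0.634% to 1.24%. No member passed the adjusted threshold in any of these 6 fits.

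**Figure D3:**
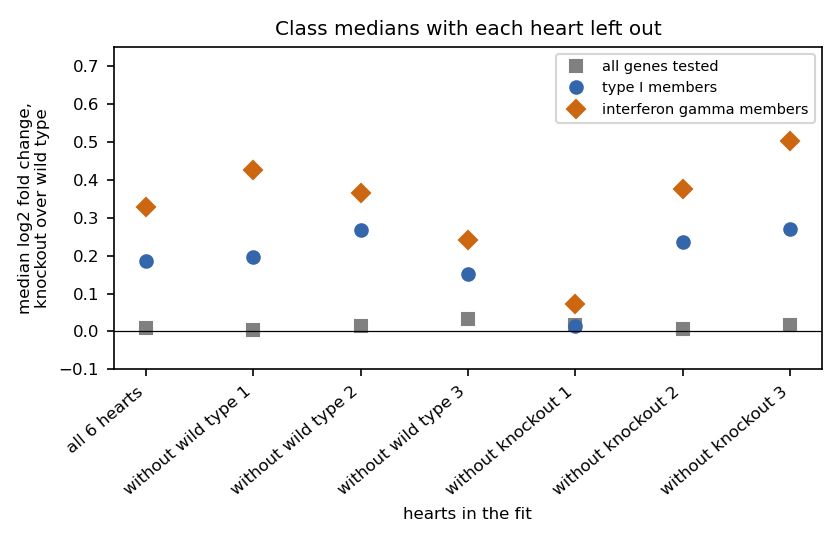
Median log2 fold change, knockout over wild type, of type I members (blue), interferon gamma members (orange) and all genes tested (grey), in the fit to all 6 hearts and in the 6 fits that leave out 1 heart. Without knockout heart 1 the medians drop to 0.02 and 0.07, close to that of all genes.

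Markers of other cell types were high in the same heart. Macrophage markers (10 genes, among them Adgre1 and Csf1r) summed to 459 CPM in knockout heart 1 and to 236 to 328 in the other 5 hearts. Endothelial markers summed to 860 CPM there, against 409 to 788, and fibroblast markers to 962 CPM against 485 to 798. Epicardial markers summed to 31.7 CPM against 3.24 to 15.7, cell cycle genes to 72.6 CPM against 36.6 to 52.5, and dendritic cell markers to 16.1 CPM against 11.3 to 13.4. Pcna gave a large part of the cell cycle sum, at 31.2 CPM in knockout heart 1 and at its highest, 45.6, in knockout heart 2. Cardiomyocyte markers summed to 55748 CPM there, of which Myh6 gave 22899.5, and 6 of the 10 were at their lowest in this heart, with a median of -0.34 (log2) from their means. Lymphocyte and natural killer cell markers, at 3.66 CPM with a range of 1.44 to 4.37 over the hearts, were not highest there. By the median gene, macrophage markers lay at 0.80 (log2) from their means in knockout heart 1, and next highest at 0.26 in wild-type heart 2. Epicardial, cell cycle and dendritic cell medians were also highest in knockout heart 1, at 2.09, 1.90 and 0.29. This heart was highest for 8 of 10 macrophage, 8 of 8 epicardial, 8 of 9 cell cycle and 2 of 5 dendritic cell markers tested. Over all genes that share was 21.6%. The fibroblast median was highest in knockout heart 3, at 0.54, against 0.38 in knockout heart 1. Endothelial markers lay at 0.41 in knockout heart 1 and at 0.40 in wild-type heart 2. In knockout hearts 2 and 3 some lists lay low where the members did and others did not. Knockout heart 2 also stood apart on the first principal component, with wild-type heart 3. Knockout heart 2 had the lowest macrophage sum, 236 CPM, and held the lowest level of 8 of the 10 macrophage markers, while the class medians there were -0.02 and 0.06. In knockout heart 3 the class medians were -0.15 and -0.21. Macrophage markers summed to 251 CPM in this heart, and the median macrophage marker lay at -0.13 (log2) from its mean, against -0.34 in wild-type heart 3. Endothelial and fibroblast markers summed to 699 and 798 CPM in knockout heart 3. Lyz2 gave a large part of the macrophage sum, at 96.5 CPM in knockout heart 3 and 205 in wild-type heart 3. No marker of any list was at 0 in all hearts. The part of these cells in the levels of the interferon-stimulated genes was not tested, and in whole hearts more cells of a type and more RNA per cell cannot be told apart.

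**Figure D4:**
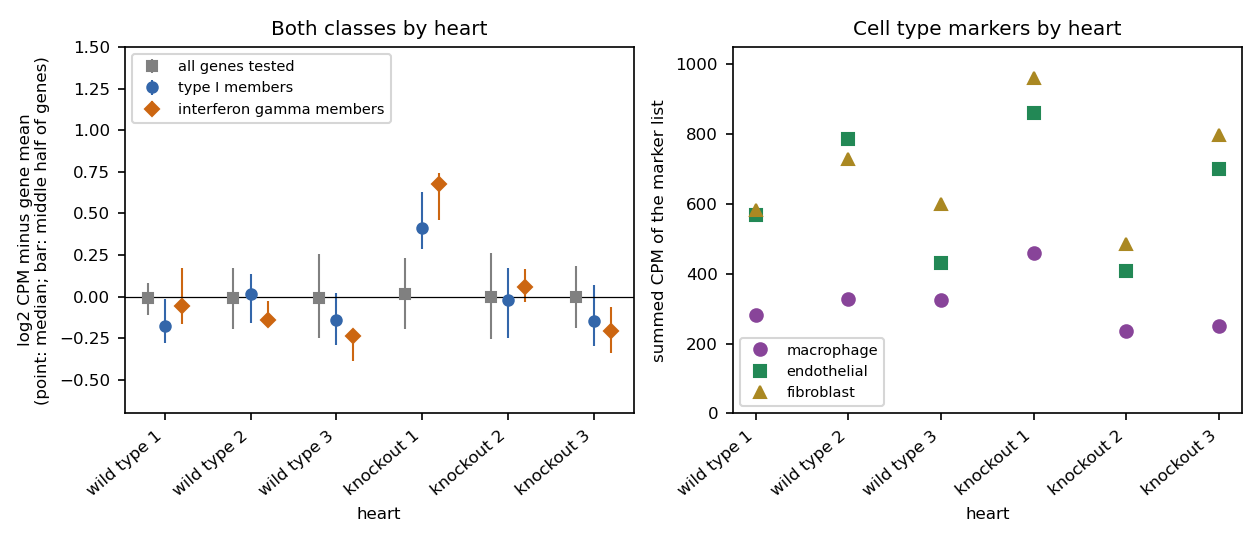
Left, median log2 CPM minus the gene mean in each heart, with the interquartile range over genes as bars, for type I members, interferon gamma members and all genes tested; right, summed CPM of macrophage, endothelial and fibroblast markers in each heart. Knockout heart 1 is highest in both panels, at 0.41 and 0.68 for the classes and at 459, 860 and 962 CPM for the markers.

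Wild-type heart 3 and knockout heart 2, which stood apart on the first principal component, also differed in the members by transcript length. Of the 21 tested members with at least 4000 bases of exon, 18 had a lower level in these 2 hearts than in the other 4, with a median log2 difference of -0.25. Of the 21 shorter members 10 were lower, with a median of 0.00. Over all genes the shares were 67.1% of the longer (median -0.20) and 33.0% of the shorter (median 0.23). The other 4 hearts include knockout heart 1, which was highest for 36 of the 42 members, so the members' shares do not isolate length. Spearman's rho of this difference with exon length was -0.58 over the 42 members and -0.46 over 14478 genes, as a description across genes that share the 6 libraries. Parp14, with 9306 bases of exon, shows it: 14.8, 25.6 and 11.3 CPM in wild-type hearts 1 to 3 and 28.1, 11.2 and 19.7 in knockout hearts 1 to 3. The pair holds 1 heart of each genotype. With both left out, the medians were 0.22 for type I and 0.29 for interferon gamma members, and 37 of 42 members had a higher value in knockout.

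The interferons themselves were close to undetected. Of 21 ligand genes, 18 had 0 reads in all 6 hearts, Ifnb1 among them, which allows a level of up to 0.0141 CPM over the 6 hearts (3 counts of the summed total, for counting error only). Ifnz had 2 reads in all, and Ifng and Ifnk had 1 each; none of the 21 passed the filter on low counts. Without that filter DESeq2 gave a p for 3 of them, 0 under 0.05.

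The receptors and kinases that read the ligands were near level between genotypes. Over this list and the 5 described next, edgeR, DESeq2 and limma-voom each called 0 genes and held 2 at an unadjusted p under 0.05, Tgtp1 and Nlrc5, where 1.23%, 0.927% and 1.23% of all genes were. These are too few to set the lists apart from the background. Neither gene was at that level without wild-type heart 2 or knockout heart 1, nor Tgtp1 without wild-type heart 1 or with a replicate block, nor Nlrc5 without wild-type heart 3. Of 11 receptor and JAK-STAT genes tested, 0 were called and 8 had a higher value in knockout (median log2 fold change 0.03); the count was 3 without wild-type heart 3, 5 without knockout heart 1 and 11 without wild-type heart 2. Ifnar2, a chain of the type I receptor, stood at 19.0, 19.97 and 19.8 CPM in wild type and at 22.5, 21.3 and 20.2 in knockout. All knockout hearts were above all wild-type hearts, as for 2.18% of all genes, and the log2 fold change was 0.12 (SE 0.12). Stat3, which also transmits cytokine signals, gave 0.31 (SE 0.27). Of the genes that sense nucleic acid and induce interferon, 18 of 19 were tested, 0 were called and 10 had a higher value (median 0.02), or 5 without knockout heart 1. Mavs, the adaptor of RIG-I and MDA5, gave -0.12 (SE 0.15), and Tmem173, which encodes STING, 0.30 (SE 0.38). Of 11 negative regulators 0 were called and 8 had a higher value (median 0.06), or 4 without wild-type heart 3 and 3 without knockout heart 1. Socs3, an inhibitor of JAK signalling, gave 0.40 (SE 0.32), and the phosphatase gene Ptpn11 -0.15 (SE 0.15).

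Relatives of the members outside the 43 were also often, though not always, highest in knockout heart 1. This held for 7 of 10 further GBP and IRG genes tested, where 21.6% of all genes were so placed. It held for 8 of 13 class I genes and for 20 of 35 other interferon-stimulated genes, which are described below. Of 13 further GBP and IRG genes 10 were tested, 0 were called and 7 had a higher value in knockout (median 0.30); the median was 0.05 without knockout heart 1, 0.15 without wild-type heart 3 and 0.49 without wild-type heart 1. Tgtp1, a GTPase with a near copy, Tgtp2, stood at 2.09, 2.21 and 3.43 CPM in wild type and at 7.07, 5.03 and 2.88 in knockout (log2 fold change 0.95, SE 0.36; unadjusted p = 0.0326 in edgeR). Gbp4 gave 0.47 (SE 0.22). In the opposite direction, Gbp10 stood at 3.29, 2.503 and 3.04 CPM in wild type and at 2.12, 2.31 and 0.419 in knockout (log2 fold change -0.87, SE 0.53). All knockout hearts were below all wild-type hearts, as for 1.9% of all genes. Gbp6 was also lowest in knockout heart 3, at 6.52 CPM against 16.6 to 23.3 in the other hearts (log2 fold change -0.54, SE 0.37); both were picked after their values were seen.

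Of 13 genes of class I antigen presentation 0 were called and 8 had a higher value in knockout (median 0.02). The median was 0.18 without wild-type heart 1, 0.19 without knockout heart 2 and 0.12 without knockout heart 3, and 5 had a higher value without knockout heart 1. Nlrc5, the transactivator of class I genes, stood at 2.28, 1.62 and 1.85 CPM in wild type and at 3.69, 2.55 and 3.14 in knockout. All knockout hearts were above all wild-type hearts, as for 2.18% of all genes. Its log2 fold change was 0.71 (SE 0.23, unadjusted p = 0.0179 and adjusted p = 0.99995 in edgeR). Other genes of the list were nearer to level or more variable: H2-K1 and B2m each gave -0.04 (SE 0.37 and 0.29), and Tap1, the peptide transporter, gave 0.46 (SE 0.33). Of 36 other interferon-stimulated genes 35 were tested, 0 were called and 25 had a higher value (median 0.15). Among them were Cxcl9, a chemokine induced by interferon gamma, at 0.52 (SE 0.32), and Ifi203, of the family that includes sensors of DNA, at 0.27 (SE 0.17). Without knockout heart 1 18 of 35 had a higher value and the median was 0.00; with any other single heart left out the median ran from 0.13 to 0.21.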

How the data were processed

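Per the labels' protocols, RNA of 6 hearts was extracted with RNeasy columns, and NEBNext Ultra II libraries were made. The deposited table holds raw read counts per Ensembl gene; the submitters' processing notes name STAR, featureCounts, Subread 1.5.2, DESeq2 and the build GRCm38.p6 but no role for any. For annotation release, strand setting and multi-mapping reads, the choice is not given in the sources used here. Symbols were matched for 48970 of 49315 identifiers. Reads carry no molecular identifiers, so floors cover counting error only.

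Genes were kept by filterByExpr (minimum count 10, minimum total 15), scaled by TMM and tested in R 4.3.3 by edgeR 4.0.16 (quasi-likelihood F test), adjusted by Benjamini-Hochberg over 14508 genes with a threshold of 0.05. Each SE was taken from the fold change and its p. The median SE was 0.23 and biological variation 24.2%. Log2 CPM by heart used a prior count of 2. Exon lengths came from GENCODE release M21 on GRCm38, promoter sequences from RefSeq on GRCm38.p6. Shared windows of 50 bases were counted between annotated transcripts. The test was tried on simulated data.

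The members and gene lists were chosen with earlier results of these data known. Values in every heart were given for the most abundant member and the member with the smallest p in each role and for the interferon gamma members; in pathway lists the 2 genes with the smallest p were named. Other genes given by heart, namely Ifit3, Isg15, Ddx58, Zbp1, Oas3, Parp14, Ifi47, Gbp6, Gbp10, Tgtp1, Irgm2, H2-K1, B2m, Nlrc5 and Ifnar2, and the split at 4000 bases, were chosen after their values were seen. Alternatives were library size alone, DESeq2's size factors, 1 CPM in 3 libraries, no filter, DESeq2 1.42.0, limma-voom (limma 3.58.1), each heart left out, a replicate block and other classes for 2 genes; leaving out wild-type heart 3 and knockout heart 2 together was added after the data were seen.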

Additional observations from a re-analysis of the deposited data

How the results depend on the processing

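No member was called under any alternative run. The medians of both classes stayed above 0 in each; without knockout heart 1 they were 0.02 and 0.07. Members with a higher value numbered 25 to 40 of 42 with 1 heart left out. Arrdc4 was the 1 gene called; leaving out 1 heart gave 0 to 1 genes. The labels do not say whether the replicate numbers pair the hearts. Deviations of same-numbered hearts correlated at 0.18, -0.65 and -0.40. Those of wild-type heart 3 and knockout heart 2, which stood apart, correlated at 0.68, so these values cannot settle a pairing. With a replicate block edgeR called 0 genes, and 72 genes and 0 members were at an unadjusted p under 0.05. The class medians were then 0.18 and 0.31. With wild-type heart 3 and knockout heart 2 left out 2 genes were called. With 1 heart left out, log2 fold changes ran from -0.069 to 0.14 for Trim25 (-0.0068, -0.057 and -0.037 in between, without wild-type hearts 1 and 3 and knockout heart 1), from -0.22 to 0.39 for Ifit2, from -0.034 to 0.65 for Oasl2, from -0.046 to 0.60 for Igtp, from -0.096 to 0.26 for Irgm1 and from -0.21 to 0.015 for Ifi27. Except for Trim25 and Ifi27, the lowest values were those without knockout heart 1. The median SE over all genes, 0.23, was above the type I median of 0.18, which limits what single members can show. Members under 1 CPM in wild type, 4 of 43, rest on few reads.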
